A study of Mus musculus with 24 samples.

Results

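The genes described here are 7 secreted antagonists of Wnt signalling, Dkk3, Dkk2, Sfrp1, Sfrp2, Sfrp4, Frzb and Wif1, out of 25369 genes listed in each library. They were chosen by name with their measured reads already known, so their values are given as a description, with no p-value and no count of those past a threshold. All 7 had a row in all 24 libraries and passed the filter on low counts. The RNA came from the left quadriceps of mice aged 25 weeks. The groups were B6 (C57BL/6J) CMD, BXD-67 CMD, BXD-87 CMD and D2 (DBA/2J) CMD, and the B6, BXD-67, BXD-87 and D2 WT groups, with 3 libraries in each of the 8 groups. CMD stands for congenital muscular dystrophy, and these mice are mutant in Lama2, the gene of the laminin alpha-2 chain of the muscle basement membrane. The labels do not say which Lama2 allele they carried. BXD strains are inbred lines derived from crosses of B6 and D2, and the labels name these lines 67 and 87. The question of the design was how the background changes the muscle's transcripts in CMD mice relative to WT mice of the same strain.

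Wnt proteins are secreted ligands that bind Frizzled receptors together with the co-receptors Lrp5 and Lrp6, which stabilises beta-catenin and switches on target genes through TCF/LEF factors. Secreted antagonists act outside the cell in different ways. Sfrp proteins and Frzb carry a Frizzled-like cysteine-rich domain and bind Wnt proteins, as does Wif1 through another domain. Dkk2 binds Lrp5 and Lrp6, whereas Dkk3 is a divergent member of the Dkk family whose link to Wnt signalling depends on the cell type. In skeletal muscle, several of these genes are expressed by fibroblasts and other cells of the connective tissue, and Wnt signals take part in regeneration and in fibrosis.

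Promoter sequences are shown for 3 members, because Dkk2 and Sfrp2 varied together within groups and because Frzb was the member whose sequence held the TCF/LEF letters. RefSeq's promoter table, build GRCm38.p6, matched 4 of the 7 members, namely Dkk2, Sfrp2, Frzb and Wif1. This build differs from that of the deposited counts. The 250 bases upstream of the start site were searched on both strands for the TCF/LEF letters CTTTGA, which are in 13.8% of 32851 promoter windows of that length, and for CAGCTG, a MyoD-type E-box, which is in 13% of them. Capitals mark the TCF/LEF match, here as its reverse complement, and the sequences run from 5′ to 3′ on the gene's strand.
Frzb promoter, chr2:80447397-80447646, minus strand: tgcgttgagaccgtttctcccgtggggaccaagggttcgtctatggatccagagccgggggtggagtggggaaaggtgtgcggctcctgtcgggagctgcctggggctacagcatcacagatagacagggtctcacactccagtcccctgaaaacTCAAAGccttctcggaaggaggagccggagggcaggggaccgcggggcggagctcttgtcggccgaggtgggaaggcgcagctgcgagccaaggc
Sfrp2 promoter, chr3:83766071-83766320, plus strand: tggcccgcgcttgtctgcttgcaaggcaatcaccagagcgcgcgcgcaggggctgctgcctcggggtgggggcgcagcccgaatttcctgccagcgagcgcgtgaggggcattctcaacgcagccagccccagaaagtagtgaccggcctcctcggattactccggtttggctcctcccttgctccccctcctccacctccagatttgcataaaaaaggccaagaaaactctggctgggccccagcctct
Dkk2 promoter, chr3:132085042-132085291, plus strand: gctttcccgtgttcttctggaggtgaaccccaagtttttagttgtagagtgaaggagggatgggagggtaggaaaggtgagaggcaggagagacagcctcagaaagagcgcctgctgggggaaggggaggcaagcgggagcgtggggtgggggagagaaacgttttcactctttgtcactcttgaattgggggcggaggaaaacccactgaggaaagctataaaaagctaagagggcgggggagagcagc
The Frzb match began 95 bases before the start site, and Frzb also held 1 CAGCTG. Sfrp2, Dkk2 and Wif1 held 0 matches of either motif in this window. A match is a run of letters and not evidence of binding.

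Total exon reads ran from 32292613 to 51715975 per library, and 15477 to 16405 genes were detected. Levels are given as CPM, total exon reads over the library size after TMM adjustment, and ± is the SD over libraries unless it is named as an SE or follows a log2 fold change. Reads of 4 Y-linked genes went against the sex label in 4 libraries, all of D2. By reads, the D2 WT libraries were all female and D2 CMD libraries 22 and 24 were male, so sex and genotype are partly confounded in D2. Sex was uneven in the other strains too. The BXD-67 CMD libraries were all female, while BXD-67 WT library 7 was male. In B6 the male libraries were 4 and 6 of CMD and 1 of WT, and in BXD-87 they were 17 and 18 of CMD and 13 of WT. D2 CMD library 23 and D2 WT library 20 were female by label and by reads. Library 16, of the BXD-87 CMD group, had the lowest summed level of 12 fibroblast markers of all libraries, 596 CPM, where the next lowest was 1115 CPM in library 20. It was also the lowest for tendon, Schwann cell and pericyte markers, with sums of 25.9, 39.7 and 164 CPM. Muscle fibre markers defined the tissue in every group, with sums of 103852 to 170534 CPM in CMD libraries and 173141 to 225519 CPM in WT libraries. The 9 markers did not move together. At an adjusted p under 0.05, 4 were raised and 4 lowered in BXD-67, and 3 were raised and 2 lowered in BXD-87. None was raised in B6 or D2, where 2 and 1 were lowered. In bulk RNA, fewer cells of a type and less RNA per cell cannot be told apart. Lama2 itself fell in B6 CMD muscle (log2 fold change -1.0 ± 0.23, SE, adjusted p = 0.00642) and in BXD-87 CMD muscle (-0.89 ± 0.23, adjusted p = 0.00939). It did not pass in BXD-67 (0.04 ± 0.23, adjusted p = 0.912) or D2 (-0.37 ± 0.23, adjusted p = 0.244). The BXD-87 call was lost when libraries 16 and 23 were left out together or only its own 6 libraries were fitted.

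Dkk3 had the highest median level of the 7 in WT muscle and was lower in CMD muscle in all 4 strains. On the TPM scale, which adjusts for transcript length, its median was 1.64 TPM in 12 CMD libraries (range 0.621 to 5.61) and 30.8 TPM in 12 WT libraries (range 4.01 to 52.4). The medians of the other 6 members lay between 0.719 and 3.72 TPM in either genotype. In WT muscle Dkk3 had the highest median, and in CMD muscle its median lay among those of the others. The order did not hold in every WT library, since D2 WT library 21 had 4.01 TPM of Dkk3 and 16.1 TPM of Frzb.

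**Figure D1:**
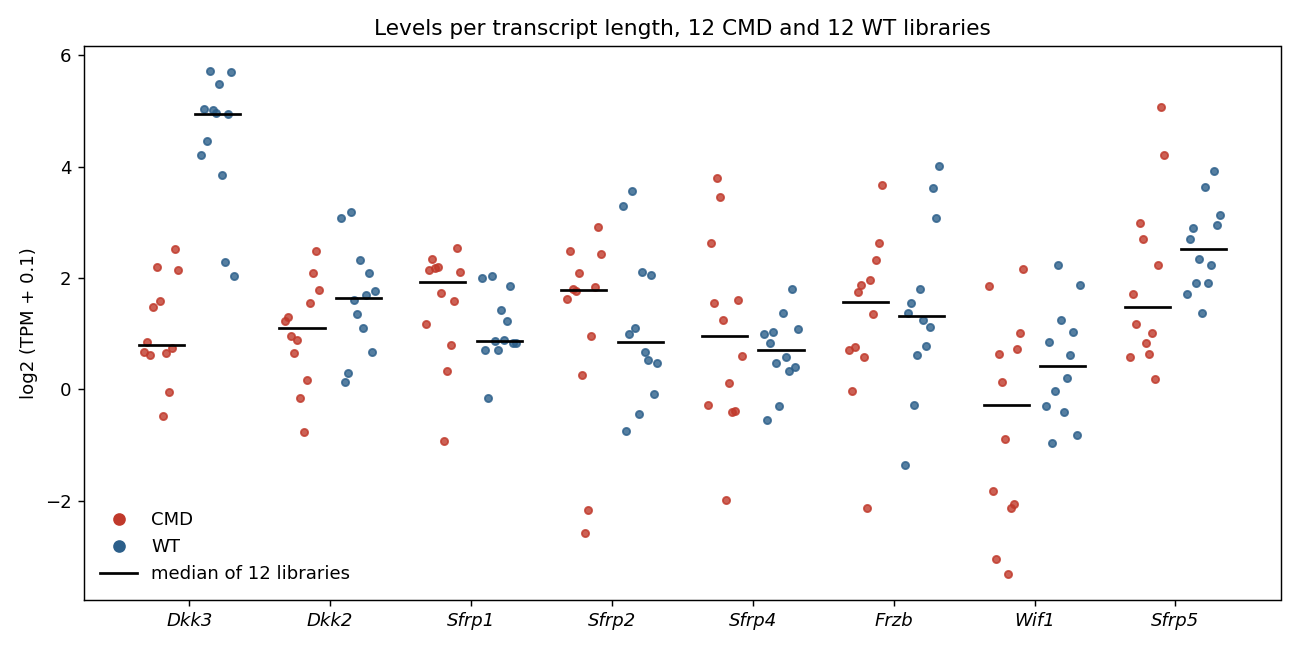
Deposited TPM of the 7 members and Sfrp5, shown as log2 (TPM + 0.1) on the vertical axis, with 12 CMD libraries left of 12 WT libraries for each gene and a bar at the median. Dkk3 has a median of 1.64 TPM in CMD and 30.8 TPM in WT libraries, and the other members' medians lie between 0.719 and 3.72 TPM.

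In B6, Dkk3 had 2.84, 3.12 and 2.55 CPM in the CMD libraries, against 31.4, 49.9 and 36.2 CPM in the WT libraries. In BXD-67 it had 4.2, 7.15 and 4.6 CPM in CMD libraries, against 88, 58.4 and 55.4 CPM in WT libraries. Both strains had tight CMD groups far below every WT library. In BXD-87 it had 1.21, 2.84 and 1.66 CPM in CMD libraries, against 66.2, 26.4 and 8.35 CPM in WT libraries. In D2 it had 2.38, 6.71 and 5.4 CPM in CMD libraries, against 47.1, 86.6 and 6.72 CPM in WT libraries. The groups did not overlap in any strain, but in D2 they nearly touched, at 6.71 CPM in CMD library 23 and 6.72 CPM in WT library 21. The share of all genes whose groups separate is not given, for Dkk3 or for the genes below. Separation is therefore a description only. The WT groups of BXD-87 and D2 were wide, with the highest library 7.92 times and 12.9 times the lowest.

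The log2 fold change of Dkk3, CMD over WT, was -3.79 ± 0.73 in B6, -3.66 ± 0.71 in BXD-67, -4.15 ± 0.75 in BXD-87 and -3.27 ± 0.70 in D2 (SE from the fit over 24 libraries). As a linear fold it was 13.8-fold lower in B6 CMD, 12.6-fold lower in BXD-67 CMD, 17.8-fold lower in BXD-87 CMD and 9.66-fold lower in D2 CMD muscle than in WT muscle of the strain. Leaving out each library of the strain in turn gave -3.90 to -3.56 in B6, -3.93 to -3.42 in BXD-67, -4.60 to -3.21 in BXD-87 and -3.82 to -2.49 in D2. The D2 value nearest to 0 came without WT library 20, and the BXD-87 value nearest to 0 came without WT library 13. In the D2 pair whose sex label matched the reads, library 23 had 6.71 CPM and library 20 had 86.6 CPM. WT libraries 19 and 21, also female by reads, had 47.1 and 6.72 CPM, so the second was level with library 23. The SE bars of the 4 strains overlapped.

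**Figure D2:**
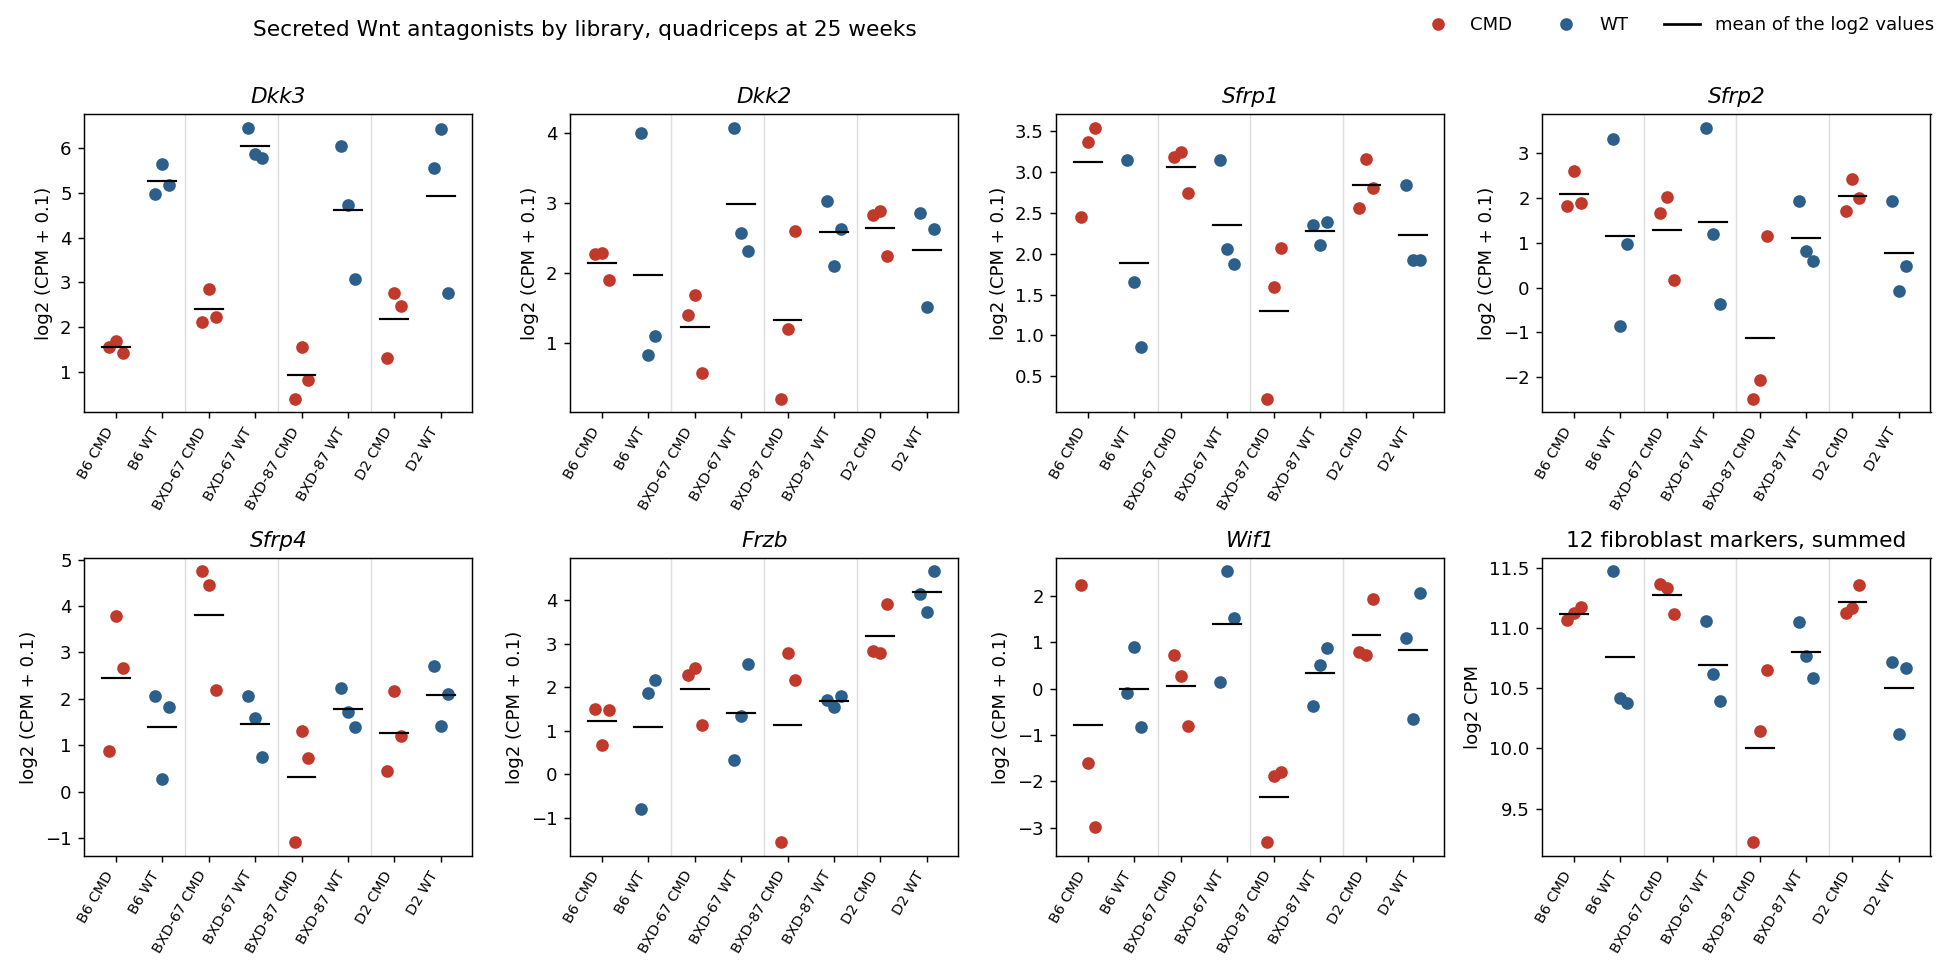
Level of each member in each of the 24 libraries as log2 (CPM + 0.1), and the summed CPM of 12 fibroblast markers on the log2 scale, with CMD (red) left of WT (blue) in each strain and a bar at the mean of the log2 values. Dkk3 is lower in every CMD library than in every WT library of its strain, and library 16, the lowest point of the BXD-87 CMD group in each panel, has 596 CPM of the markers.

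Dkk2 gave no common direction across strains. In BXD-67 its 3 CMD libraries had 2.54, 3.12 and 1.39 CPM, all below the WT libraries at 16.7, 5.83 and 4.84 CPM. In B6 the CMD libraries had 4.7, 4.75 and 3.61 CPM, and the WT libraries 15.8, 1.67 and 2.05 CPM. A single WT library, number 1, set the B6 mean, and without it the log2 fold change was 1.24 in place of -0.57 ± 0.70. In BXD-87 Dkk2 had 1.05, 2.19 and 5.95 CPM in CMD libraries and 8.01, 4.16 and 6.06 CPM in WT libraries. In D2 it had 6.97, 7.27 and 4.61 CPM in CMD libraries and 7.1, 2.75 and 6.08 CPM in WT libraries. The groups overlapped in B6, BXD-87 and D2. The log2 fold changes were -1.95 ± 0.72 in BXD-67, -0.98 ± 0.70 in BXD-87 and 0.24 ± 0.69 in D2, and in BXD-67 the value was -1.18 without WT library 7.

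Sfrp1, a Wnt-binding antagonist, was higher on average in CMD muscle of 3 strains and lower in BXD-87. In B6 it had 5.37, 10.2 and 11.5 CPM in CMD libraries, against 8.73, 3.05 and 1.71 CPM in WT libraries. In BXD-67 it had 8.99, 9.35 and 6.6 CPM in CMD libraries, against 8.72, 4.04 and 3.56 CPM in WT libraries. WT library 1 in B6 and WT library 7 in BXD-67 reached into the CMD range. In D2 Sfrp1 had 5.76, 8.83 and 6.86 CPM in CMD libraries, against 7.05, 3.69 and 3.68 CPM in WT libraries. In BXD-87 it had 1.07, 2.92 and 4.08 CPM in CMD libraries, all below 5, 4.19 and 5.12 CPM in WT libraries. The log2 fold changes were 1.01 ± 0.50 in B6, 0.61 ± 0.50 in BXD-67, 0.57 ± 0.50 in D2 and -0.82 ± 0.51 in BXD-87. Without library 16 the BXD-87 value was -0.44.

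Sfrp2, a close relative of Sfrp1, overlapped between genotypes in every strain. In B6 it had 3.42, 5.96 and 3.59 CPM in CMD libraries and 9.91, 0.448 and 1.87 CPM in WT libraries. In BXD-67 it had 3.07, 3.97 and 1.03 CPM in CMD libraries and 11.8, 2.2 and 0.68 CPM in WT libraries. The WT spread was 22.1-fold in B6 and 17.3-fold in BXD-67, and in both the highest was the only male library of the WT group. In BXD-87 it had 0.0786, 0.14 and 2.11 CPM in CMD libraries, which were 3, 5 and 103 reads, and 3.74, 1.65 and 1.4 CPM in WT libraries. In D2 it had 3.16, 5.27 and 3.92 CPM in CMD libraries and 3.74, 0.845 and 1.29 CPM in WT libraries. Its log2 fold changes were 0.09 ± 1.02 in B6, -0.86 ± 1.03 in BXD-67, -1.49 ± 1.08 in BXD-87 and 1.07 ± 1.03 in D2. Leaving out 1 library moved them far, to 1.90 in B6 without library 1, to 0.90 in BXD-67 without library 7 and to -4.34 in BXD-87 without library 18.

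Sfrp4, another member of the family, had opposite directions in the BXD strains. In BXD-67 it had 26.8, 21.8 and 4.47 CPM in CMD libraries, all above 4.08, 2.9 and 1.58 CPM in WT libraries. In BXD-87 it had 0.367, 2.36 and 1.56 CPM in CMD libraries, all below 4.57, 3.19 and 2.52 CPM in WT libraries. The log2 fold changes were 2.63 ± 0.76 in BXD-67 and -1.26 ± 0.75 in BXD-87, and the BXD-87 value was -0.82 without library 16. In B6 Sfrp4 had 1.72, 13.8 and 6.24 CPM in CMD libraries and 4.06, 1.11 and 3.45 CPM in WT libraries. In D2 it had 1.26, 4.37 and 2.2 CPM in CMD libraries and 6.45, 2.56 and 4.22 CPM in WT libraries. Both of these strains overlapped, with log2 fold changes of 1.34 ± 0.73 in B6 and -0.75 ± 0.72 in D2. The B6 value was 0.49 without CMD library 5.

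Frzb, the founding member of the Sfrp family, had its highest group means in D2, for both genotypes. In D2 it had 7.01, 6.78 and 14.9 CPM in CMD libraries, against 17.6, 13.2 and 25.3 CPM in WT libraries. The D2 WT libraries stood above all 9 WT libraries of the other strains, in which Frzb ran from 0.47 to 5.66 CPM. In B6 it had 2.74, 1.5 and 2.67 CPM in CMD libraries and 0.47, 3.56 and 4.38 CPM in WT libraries. In BXD-67 it had 4.78, 5.36 and 2.08 CPM in CMD libraries and 1.15, 2.43 and 5.66 CPM in WT libraries. In both strains the genotypes overlapped. In BXD-87 it had 0.236, 6.85 and 4.39 CPM in CMD libraries and 3.17, 2.81 and 3.4 CPM in WT libraries, and the lowest of these was library 16. Its log2 fold changes were -0.30 ± 0.77 in B6, 0.41 ± 0.76 in BXD-67, 0.29 ± 0.75 in BXD-87 and -0.97 ± 0.74 in D2. Mean Frzb in WT muscle was 2.80 ± 2.06 CPM in B6, 3.08 ± 2.33 CPM in BXD-67, 3.12 ± 0.296 CPM in BXD-87 and 18.7 ± 6.17 CPM in D2 (SD, n = 3 each), and the library ranges of B6, BXD-67 and BXD-87 overlapped.

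Wif1 had the lowest median level of the members in both genotypes, though not the lowest mean in every group. In BXD-67 WT muscle its mean of 3.16 CPM was above the 2.85 CPM of Sfrp4. In BXD-87 the CMD libraries had 0, 6 and 9 reads, or 0, 0.169 and 0.185 CPM, against 28, 49 and 83 reads, or 0.667, 1.32 and 1.73 CPM, in WT libraries. All CMD libraries lay below all WT libraries there, and a count of 0 allows up to 3 reads by counting error alone. In B6 the CMD libraries had 4.62, 0.228 and 0.0255 CPM and the WT libraries 0.84, 1.76 and 0.467 CPM. In BXD-67 it had 1.55, 1.1 and 0.474 CPM in CMD libraries and 1.01, 5.69 and 2.77 CPM in WT libraries. In both strains the genotypes overlapped. In D2 it had 1.62, 1.56 and 3.74 CPM in CMD libraries and 2.05, 0.531 and 4.1 CPM in WT libraries, which also overlapped. For Wif1 the log2 fold changes were 0.66 ± 1.05 in B6, -1.60 ± 1.04 in BXD-67, -3.34 ± 1.27 in BXD-87 and 0.05 ± 1.0 in D2. The B6 value was -2.93 without CMD library 4, and the BXD-87 value was -2.80 without library 16. Summed tendon markers were 25.9 to 119 CPM in BXD-87 CMD libraries and 81.5 to 187 CPM in BXD-87 WT libraries. In the other strains these sums were higher in CMD libraries. They were 355 to 600 CPM against 107 to 251 CPM in WT of B6, and 433 to 655 CPM against 142 to 284 CPM in BXD-67. In D2 they were 321 to 686 CPM against 102 to 281 CPM. The part of tendon content in the Wif1 values was not tested.

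**Figure D3:**
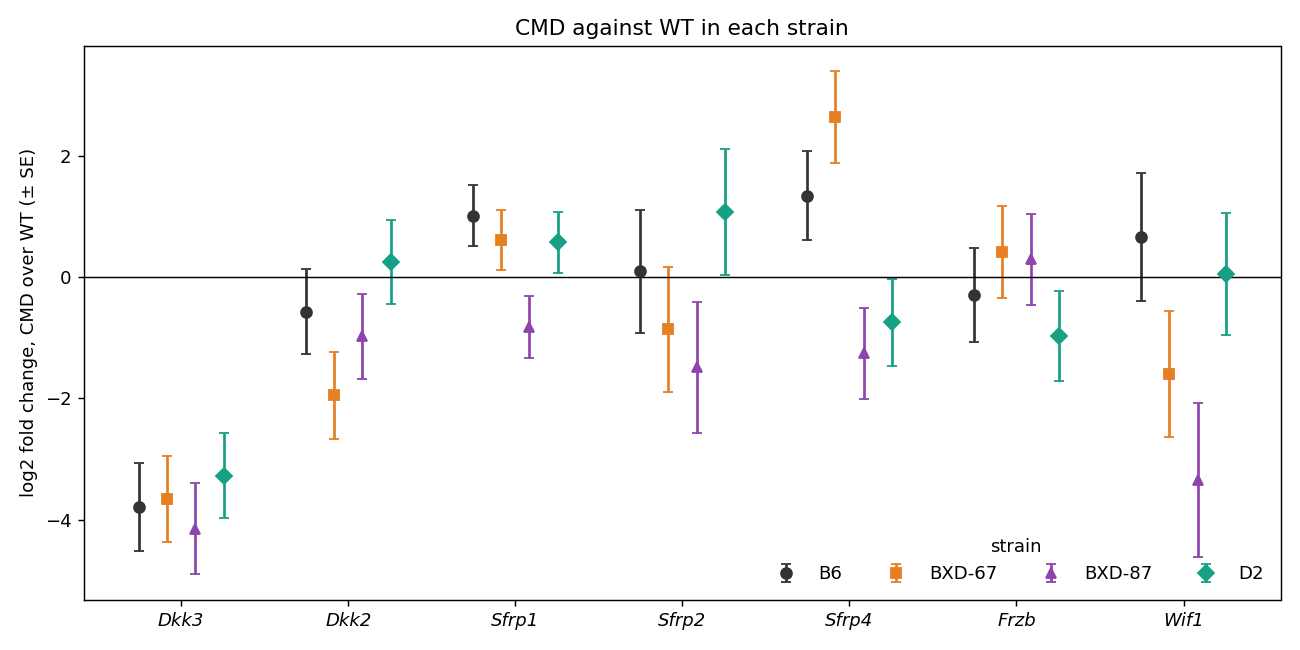
Log2 fold change of each member, CMD over WT, in each strain, with bars of 1 SE from the fit over 24 libraries. Dkk3 lies between -4.15 and -3.27 in the 4 strains, whereas Sfrp4 is 2.63 in BXD-67 and -1.26 in BXD-87.

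The threshold of an adjusted p of 0.05 in edgeR's quasi-likelihood test was used on all 14789 genes that passed the filter. It is applied below to genes of the wider pathway and not to the members. Of all genes tested, 8.07% were raised and 10.4% lowered in B6, 11.4% raised and 10.3% lowered in BXD-67, 11.5% raised and 9.38% lowered in BXD-87, and 11.2% raised and 9.03% lowered in D2. In the F test of whether the CMD effect differed among strains 4.67% of genes passed, and in the F test of WT levels among strains 8.66% did. The members were chosen on these contrasts, so whether they pass is not read as a result. The members' median log2 fold change was 0.09 in B6, -0.86 in BXD-67, -1.26 in BXD-87 and 0.05 in D2, beside 0.01, 0.0, 0.01 and 0.03 for all genes.

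Library 16 had the lowest CPM of all 24 libraries for each of the 7 members. The BXD-87 values without it were -3.92 for Dkk3, -0.56 for Dkk2, -0.94 for Sfrp2 and 0.83 for Frzb. The fibroblast marker sums beside these were 596 to 1607 CPM in BXD-87 CMD libraries and 1535 to 2123 CPM in WT libraries. In the other strains the sums were 2140 to 2310 CPM in B6 CMD and 1333 to 2840 CPM in WT, 2225 to 2647 CPM in BXD-67 CMD and 1345 to 2136 CPM in WT, and 2233 to 2628 CPM in D2 CMD and 1115 to 1687 CPM in WT. Of the 12 fibroblast markers, 1 passed as raised in B6 and 1 in D2, 3 passed as raised in BXD-67, and 3 passed as lowered in BXD-87. None of the 12 was at 0 in all libraries of a group. The part of fibroblast content in the members' values was not tested. In B6, BXD-67 and BXD-87 the only male WT library, numbers 1, 7 and 13, had the highest Dkk2, the highest Sfrp2 and the highest fibroblast marker sum of its WT group.

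Over all libraries Sfrp1 and Sfrp2 varied most closely with the fibroblast sum, with or without library 16, whereas within groups Dkk2 did. As a description over 24 libraries that share library depth and tissue, Pearson's r of log2 CPM with the sum was 0.89 for Sfrp1, 0.85 for Sfrp2, 0.66 for Sfrp4, 0.52 for Dkk2, 0.39 for Wif1, 0.13 for Frzb and -0.03 for Dkk3. Within groups, after the group means were removed, it was 0.89 for Dkk2, 0.85 for Sfrp1, 0.84 for Sfrp2, 0.59 for Sfrp4, 0.24 for Wif1, 0.12 for Frzb and 0.07 for Dkk3. Over the 23 libraries without library 16 it was 0.83 for Sfrp1, 0.78 for Sfrp2, 0.50 for Sfrp4, 0.35 for Dkk2, 0.04 for Wif1, -0.35 for Frzb and -0.35 for Dkk3. The pair of members most alike within groups was Dkk2 and Sfrp2 (0.89, and 0.75 over all libraries), followed by Dkk2 and Sfrp1 (0.82, and 0.53 over all). Frzb and Wif1 had 0.49 over all libraries. Dkk3 had between -0.05 and 0.42 with the other members.

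**Figure D4:**
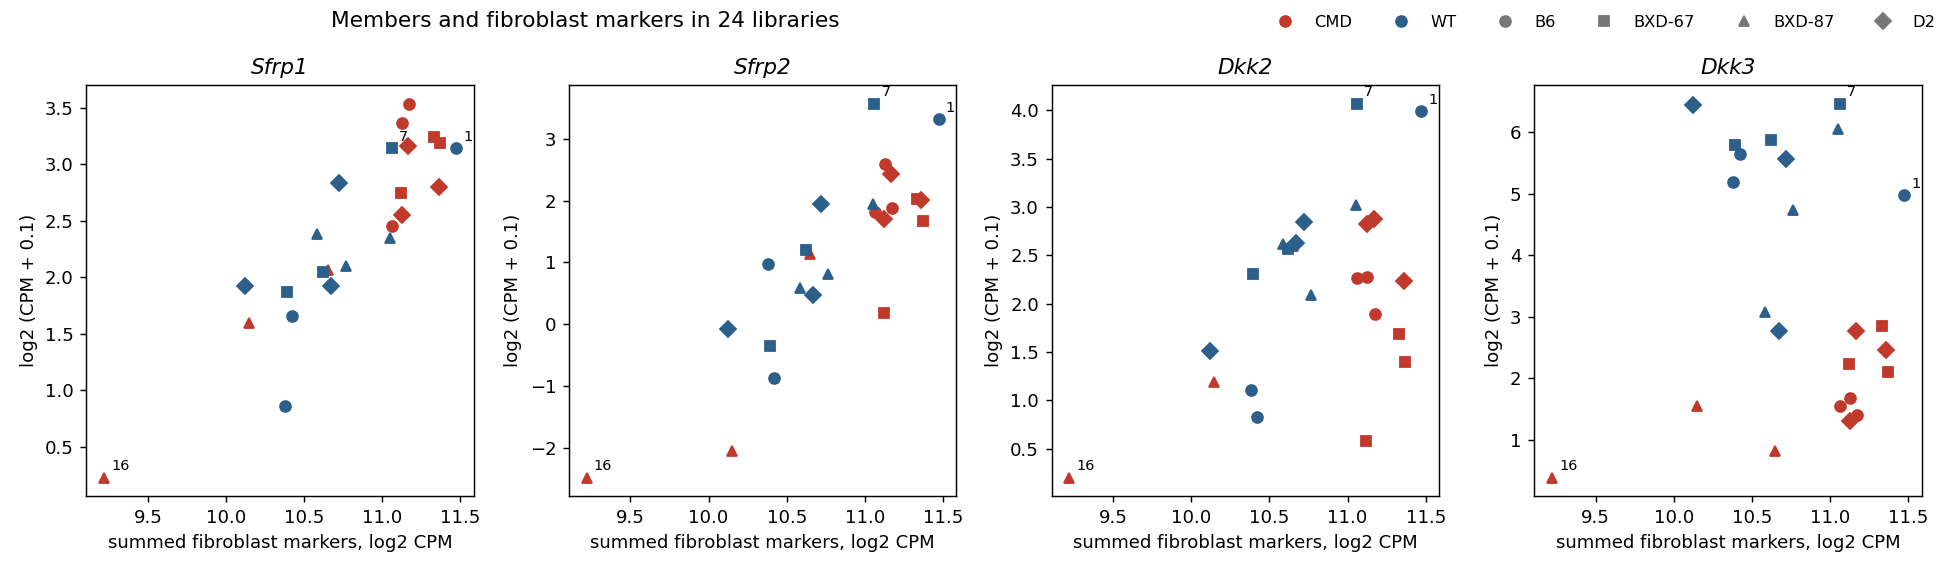
Level of Sfrp1, Sfrp2, Dkk2 and Dkk3, as log2 (CPM + 0.1), against the summed fibroblast markers, as log2 CPM, in 24 libraries, with colour for genotype, shape for strain and the numbers of libraries 1, 7 and 16. Pearson's r over all libraries is 0.89 for Sfrp1, 0.85 for Sfrp2, 0.52 for Dkk2 and -0.03 for Dkk3, and library 16 is the lowest point on both axes.

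The genes whose pattern over the 24 libraries was most like that of each member were found by Pearson's r of log2 CPM. For Dkk3 they were Kl, which encodes klotho (0.90), Unc45b, a chaperone of muscle myosin (0.87), and Tpx2, a spindle assembly factor (0.87). Their log2 fold changes in B6, BXD-67, BXD-87 and D2 were -4.15, -2.79, -4.00 and -2.40 for Kl. For Unc45b they were -0.85, -0.83, -0.79 and -0.64. For Tpx2 they were -2.40, -1.80, -3.32 and -1.67. All 3 genes were lower in CMD muscle of every strain. They were picked for likeness to Dkk3, itself lower in CMD muscle, so this shared direction largely follows from the choice. Within groups, r with Dkk3 was 0.44 for Kl, 0.62 for Unc45b and 0.69 for Tpx2. For Sfrp1 the closest genes were Olfml2b (0.91), Igsf10 (0.90) and C1ra (0.89), and for Sfrp2 they were Ogn, a small leucine-rich proteoglycan (0.90), Efemp2, an elastic fibre protein (0.86), and Susd2 (0.84). For Sfrp4 they were Medag (0.83), Fap, fibroblast activation protein (0.82), and Thbs3, a thrombospondin (0.80). For Dkk2 they were Adamts5, a proteoglycan-cleaving protease (0.80), Xpnpep2 (0.79) and Cd209f (0.79). Frzb was most like Barx2, a homeobox factor (0.87), Plekha6 (0.85) and Lrp4, a co-receptor of the neuromuscular junction (0.84). Wif1 was most like Egfl6 (0.85), Fmod, a matrix proteoglycan (0.80), and Lepr, the leptin receptor (0.80).

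The rest of the Dkk and Sfrp families was Sfrp5, Dkk1 and Dkk4. Dkk1 had 0 to 3 reads and Dkk4 0 to 6 reads per library, and both were under the filter. Sfrp5 fell in BXD-87, with 1.6, 2.11 and 1.13 CPM in CMD libraries, against 10.3, 3.81 and 4.56 CPM in WT libraries (log2 fold change -1.96 ± 0.59, adjusted p = 0.0238). The CMD libraries lay below the WT libraries, but the call was lost without library 13, 16 or 18, with an adjusted p of up to 0.128. The call was also lost without libraries 16 and 23 together and when only the BXD-87 libraries were fitted. Sfrp5 was -1.14 ± 0.58 in B6, 0.37 ± 0.56 in BXD-67 and 0.47 ± 0.55 in D2, none of which passed.

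The wider pathway was read from 6 lists with 91 genes other than the members, of which 72 were tested. In B6 3 genes rose and 8 fell, which is 4.17% and 11.1% of the 72 genes, beside 8.07% and 10.4% of all genes. In BXD-67 11 rose and 8 fell (15.3% and 11.1%, beside 11.4% and 10.3%). In BXD-87 5 rose and 7 fell (6.94% and 9.72%, beside 11.5% and 9.38%), and in D2 14 rose and 5 fell (19.4% and 6.94%, beside 11.2% and 9.03%). The median log2 fold changes of the 72 genes were -0.20 in B6, 0.22 in BXD-67, -0.02 in BXD-87 and 0.33 in D2. Of the 72 genes, 38 passed in at least 1 strain and 6 passed in the same direction in at least 3, namely Wnt4, Fzd7, Fzd9, Fzd10, Lgr4 and Ctnnb1. The shares of all genes that pass in at least 1 or at least 3 strains are not given, so these counts are a description only. Without B6 CMD library 5 the B6 count was 6, without BXD-67 WT library 9 the BXD-67 count was 12, and without BXD-87 WT library 13 the BXD-87 count was 7. When only the 6 BXD-87 libraries were fitted, the BXD-87 count was 0, and Wnt2 was there below the filter on low counts, so no BXD-87 call of these lists given below held in that fit. The D2 count was 7 without library 20, 8 without library 21 and 9 without library 23 or 24. The genes of these lists were written down with earlier results of these data known.

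**Figure D5:**
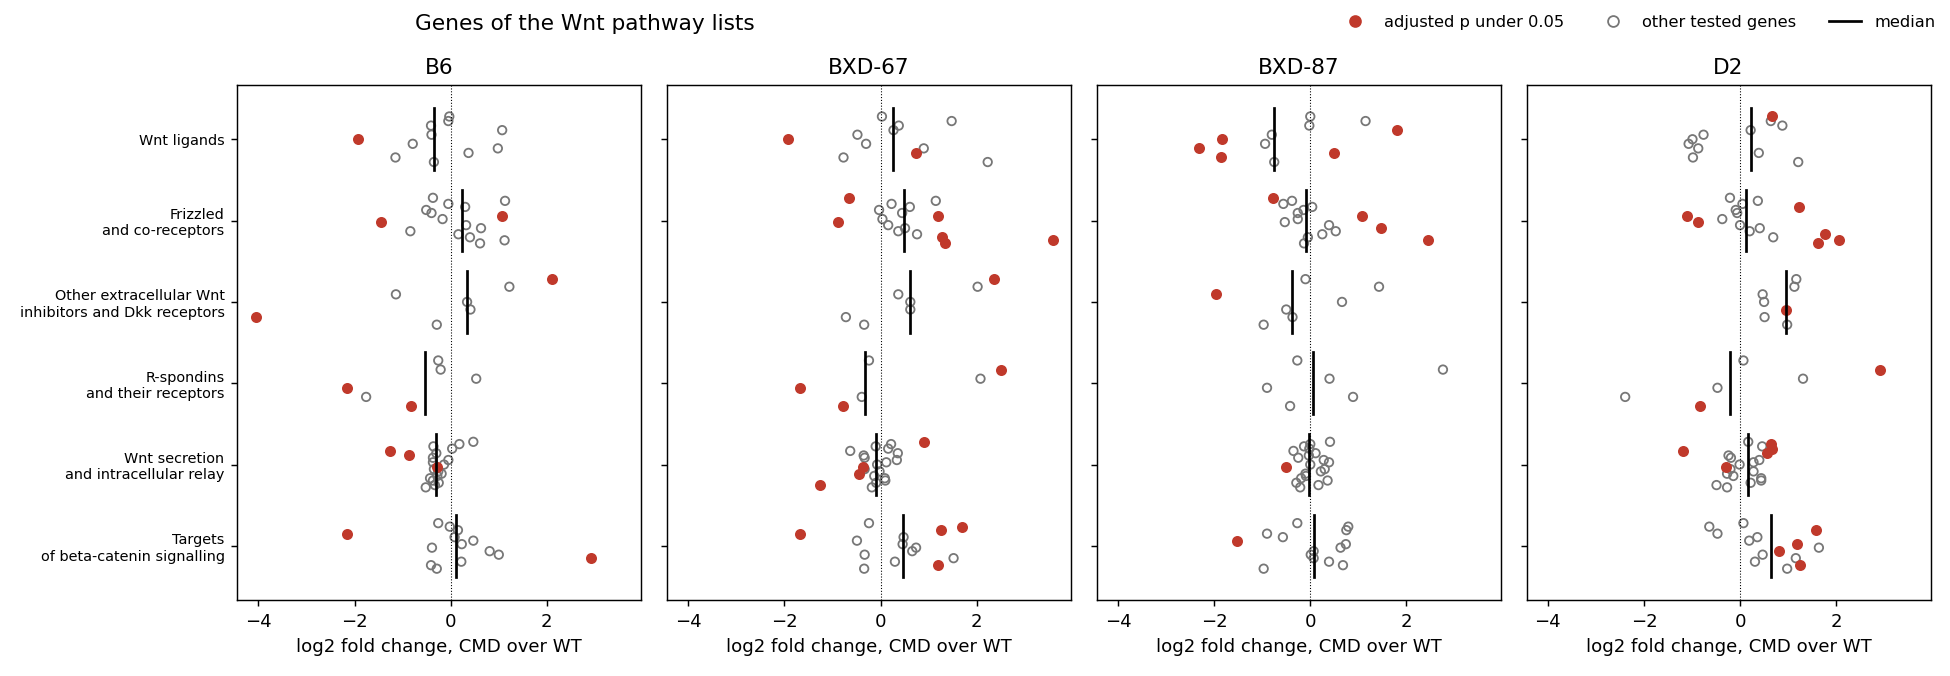
Log2 fold change, CMD over WT, of the 72 tested genes of the 6 Wnt pathway lists in each strain, with the lists from top to bottom, genes with an adjusted p under 0.05 filled and a bar at each list's median. A gene on more than 1 list is drawn in each, and the filled points number 11 genes in B6, 19 in BXD-67, 12 in BXD-87 and 19 in D2.

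Among the 11 Wnt ligands tested, 1 fell in B6, 1 rose and 1 fell in BXD-67, 2 rose and 3 fell in BXD-87, and 1 rose in D2. Wnt4, a ligand made in muscle fibres among other cells, had 10.1 ± 4.26 CPM in B6 CMD and 38.3 ± 8.95 CPM in B6 WT libraries (SD, n = 3 each). Wnt4 had 12.8 ± 2.37 CPM in BXD-67 CMD and 48.7 ± 2.04 CPM in BXD-67 WT libraries, and 13.2 ± 9.77 CPM in BXD-87 CMD and 47.0 ± 8.82 CPM in BXD-87 WT libraries. On the log2 scale it fell by 1.92 in B6, fell by 1.93 in BXD-67 and fell by 1.83 in BXD-87 (adjusted p = 0.00282, 0.00166 and 0.00235), and in D2 it was -0.99 ± 0.37 (adjusted p = 0.062). The BXD-87 call was lost when only its own 6 libraries were fitted (adjusted p = 0.0892). Wnt2 fell in BXD-87 (-2.31 ± 0.58, adjusted p = 0.00847), and its CMD effect differed among strains (adjusted p = 0.0323), with 0.98 in B6, 0.90 in BXD-67 and -0.87 in D2. Wnt2 is scarce, with 9 reads in the BXD-87 CMD group and 46 reads in the BXD-87 WT group, and the call for a difference among strains was lost under 12 of 31 alternatives. Wnt11, a ligand of beta-catenin-independent signalling, rose in BXD-67 (0.74 ± 0.17, adjusted p = 0.00419) and in BXD-87 (0.50 ± 0.16, adjusted p = 0.0369), and Wnt9a rose in D2 (0.66 ± 0.18, adjusted p = 0.015). The BXD-87 call for Wnt11 was lost without library 13, 14, 15, 16 or 17, without libraries 16 and 23 together and with no filter on low counts. The call for Wnt9a was lost without library 20, 21 or 24 and when only the D2 libraries were fitted.

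The 16 receptors and co-receptors held 1 raised and 1 lowered gene in B6, 4 and 2 in BXD-67, 3 and 1 in BXD-87, and 4 and 2 in D2. Fzd7, a receptor found on satellite cells, had 35.9 ± 4.26 CPM in B6 CMD and 98.2 ± 5.06 CPM in B6 WT libraries (SD, n = 3 each). Fzd7 fell by 1.45 in B6, by 0.89 in BXD-67 and by 0.87 in D2, as log2 fold changes (adjusted p = 0.000248, 0.00408 and 0.00546), and it was -0.53 ± 0.20 in BXD-87 (adjusted p = 0.0594). Fzd9, another Wnt receptor, rose in B6 (1.06 ± 0.31), BXD-67 (1.2 ± 0.31) and BXD-87 (1.08 ± 0.31) and fell in D2 (-1.11 ± 0.31), with adjusted p of 0.023, 0.01, 0.0179 and 0.0171. Its levels were 40.8 ± 11.4 CPM in B6 CMD and 19.6 ± 6.85 CPM in B6 WT libraries, and 9.39 ± 0.96 CPM in D2 CMD and 20.3 ± 1.97 CPM in D2 WT libraries. The difference among strains for Fzd9 had an adjusted p of 0.0069 and passed under all 31 alternatives. Within a strain, the Fzd9 call was lost without library 1, 3, 5 or 6 in B6, without library 11 in BXD-67, without library 13, 15 or 18 in BXD-87 and without library 23 in D2. The D2 call for Fzd9 was also lost with sex from Y-linked reads as a term and without libraries 16 and 23 together, with an adjusted p of up to 0.0513 in these fits. Fzd10 rose in BXD-67 (3.58 ± 0.72, adjusted p = 0.00197), BXD-87 (2.44 ± 0.70, adjusted p = 0.0183) and D2 (2.06 ± 0.62, adjusted p = 0.0253). It is a low-level gene, with 2.32 ± 0.573 CPM in BXD-67 CMD and 0.19 ± 0.0714 CPM in BXD-67 WT libraries. The Fzd10 call was lost without library 13, 15 or 17 in BXD-87 and without library 20, 21, 23 or 24 in D2, where it was also lost with sex as labelled as a term and without libraries 16 and 23 together (adjusted p of up to 0.0558). Fzd1 rose in BXD-67 (1.34 ± 0.27, adjusted p = 0.00179) and D2 (1.63 ± 0.26, adjusted p = 0.000551), was -0.13 ± 0.26 in BXD-87, and differed among strains (adjusted p = 0.0226), a call lost without library 13, 14, 21 or 24 and without libraries 16 and 23 together. Ryk, a receptor-like kinase for Wnt proteins, fell in BXD-67 (-0.65 ± 0.14, adjusted p = 0.00274) and BXD-87 (-0.77 ± 0.14, adjusted p = 0.00095).

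The other extracellular inhibitors and Dkk receptors held 7 tested genes of 14. Tpbg, a membrane inhibitor of Wnt signalling, rose in B6 (2.11 ± 0.47, adjusted p = 0.00605) and in BXD-67 (2.37 ± 0.45, adjusted p = 0.00134), and it was -0.10 ± 0.45 in BXD-87. Igfbp4, which binds insulin-like growth factors and can block Wnt receptors, rose in D2 (0.95 ± 0.32, adjusted p = 0.0403), a call lost under 8 of 32 alternatives, among them sex from Y-linked reads as a term and leaving out library 20, 21, 22, 23 or 24. Draxin, a secreted axon guidance protein that can bind Lrp6, passed as lowered in B6 on 1 read in the CMD group and 19 reads in the WT group (adjusted p = 0.0202), a call lost without library 3, 4 or 5. None of the 7 passed in the F test among strains, where 4.67% of all genes did.

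R-spondins raise Wnt signalling by sparing Frizzled receptors from the ligase Rnf43, and they bind Lgr4 to Lgr6. Of 6 tested genes of this list, Rspo3 rose in BXD-67 (2.51 ± 0.84, adjusted p = 0.0393) and D2 (2.91 ± 0.76, adjusted p = 0.012). Rspo3 had 9.3 ± 6.63 CPM in D2 CMD and 1.23 ± 1.23 CPM in D2 WT libraries (SD, n = 3 each), so its D2 CMD libraries varied widely, and the D2 call was lost without library 20 or 23 and when only the D2 libraries were fitted. The BXD-67 call for Rspo3 was lost without library 7, 8, 9, 10 or 11 and with sex from Y-linked reads as a term. Lgr4 fell by 0.82 in B6, by 0.78 in BXD-67 and by 0.84 in D2, as log2 fold changes (adjusted p = 0.0123, 0.0134 and 0.00968), and the call was lost without library 5 in B6 and without library 11 in BXD-67. Rnf43, itself a target of beta-catenin, fell in B6 (-2.16 ± 0.60, adjusted p = 0.0184) and in BXD-67 (-1.67 ± 0.58, adjusted p = 0.047), and the call was lost without library 2, 4 or 6 in B6 and under 19 of 32 alternatives in BXD-67.

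In the list of secretion and intracellular relay, all 21 genes were tested, and Ctnnb1, which encodes beta-catenin, was the only gene of the 72 to pass in the same direction in all 4 strains. The share of all genes that do so is not given. Ctnnb1 is therefore described here gene by gene. Ctnnb1 fell by 0.29 in B6, by 0.36 in BXD-67, by 0.50 in BXD-87 and by 0.29 in D2, as log2 fold changes (adjusted p = 0.047, 0.0138, 0.00186 and 0.0465). The B6 call was lost under 25 of 32 alternatives, the D2 call under 12, both sex terms among them, the BXD-67 call without library 9 or 12, and the BXD-87 call when only its own libraries were fitted. Pygo1, a partner of the beta-catenin complex, fell in B6 (-1.27 ± 0.29, adjusted p = 0.0068) and D2 (-1.18 ± 0.29, adjusted p = 0.00892), and its relative Pygo2 rose in D2 (0.67 ± 0.13, adjusted p = 0.00213). Gsk3b, the kinase that marks beta-catenin for degradation, fell in B6 (-0.87 ± 0.24, adjusted p = 0.0186), and Wls, which carries Wnt proteins out of the cell, rose in BXD-67 (0.91 ± 0.28, adjusted p = 0.024). The Gsk3b call was lost without library 5 and the Wls call without library 8, 9 or 10.

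Among 14 tested targets of beta-catenin signalling, 1 rose and 1 fell in B6, 3 rose and 1 fell in BXD-67, 1 fell in BXD-87, and 4 rose in D2. Axin2, a feedback inhibitor and common readout of the pathway, had 10.9 ± 1.18 CPM in BXD-67 CMD and 4.78 ± 1.29 CPM in BXD-67 WT libraries, and 16.7 ± 6.31 CPM in D2 CMD and 7.03 ± 1.04 CPM in D2 WT libraries (SD, n = 3 each). Axin2 rose in BXD-67 (1.19 ± 0.26, adjusted p = 0.00343) and D2 (1.25 ± 0.25, adjusted p = 0.00282), was 0.68 ± 0.25 in BXD-87 (adjusted p = 0.0638) and was -0.41 ± 0.25 in B6 (adjusted p = 0.273). The difference among strains passed (adjusted p = 0.0225), and it was lost without library 3, 5, 6 or 21. Tcf7, a TCF/LEF factor, rose in D2 (1.59 ± 0.43, adjusted p = 0.0156) and BXD-67 (1.25 ± 0.44, adjusted p = 0.048), a call lost under 22 of 32 alternatives in BXD-67 and without library 20, 21 or 24 in D2. Ccn4, a secreted matricellular protein, rose in B6 (2.92 ± 0.60, adjusted p = 0.00369), Tnfrsf19 rose in BXD-67 (1.69 ± 0.40, adjusted p = 0.00582), Nkd1, a feedback inhibitor, fell in BXD-87 (-1.52 ± 0.47, adjusted p = 0.0265), and Myc rose in D2 (1.19 ± 0.34, adjusted p = 0.0203). The Nkd1 call was lost without library 13, 16 or 18, and the Myc call without library 20, 21, 23 or 24 and with sex as labelled as a term (adjusted p = 0.0571). Leaving out libraries 16 and 23 together also ended the Nkd1 call.

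WT levels differed among strains for 6 of the 72 pathway genes, or 8.33%, close to the 8.66% of all genes. Fzd8 had 6.5 ± 0.413 CPM in D2 WT libraries, against 4.52 ± 0.843 CPM in B6, 3.68 ± 0.0706 CPM in BXD-67 and 3.87 ± 0.447 CPM in BXD-87 WT libraries (SD, n = 3 each, adjusted p = 0.00726). Lgr6 had 3.26 ± 2.39 CPM in D2 WT libraries and 0.0777 to 0.773 CPM as means of the other WT groups (adjusted p = 0.00709). For Fzd8 the D2 WT libraries, at 6.11 to 6.93 CPM, lay above every other WT library, the highest of which had 5.44 CPM. The Fzd8 call was lost without library 21 and the Lgr6 call without library 19. The others were Lrp5 (adjusted p = 0.0163), Rspo3 (0.0287), Ryk (0.0395) and Fzd7 (0.0466), lost under 4, 8, 5 and 20 of 32 alternatives.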

How the data were processed

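Total RNA of left quadriceps was extracted with TRIzol and sequenced as stranded mRNA libraries in paired reads, per the labels' protocols. Reads were mapped to GRCm39 (mm39), per the submitters' processing notes, while the aligner, the counter and its use of strand were not given in the sources used here. Gene tables came from the authors, who deposited raw counts per gene (total and unique exon reads, of which 97.74% to 98.24% were unique) and TPM, per the file headers. TPM was used only to set levels of different genes side by side. Files were joined by gene ID. Counts of 0 filled 6830 of 25369 genes in all libraries.

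Genes passing filterByExpr by group (minimum count 10, minimum total 15), 14789 in all, entered one edgeR model (edgeR 4.0.16, R 4.3.3) with TMM factors, glmQLFit and a term for each of the 8 groups. Tests were glmQLFTest with Benjamini-Hochberg adjustment over all tested genes and a threshold of 0.05. No sex term was used, because the summed level of 4 Y-linked genes, read as male when above 5 CPM, went against the label in 4 D2 libraries. SE is the log2 fold change divided by the square root of F. The labels name libraries 1 to 24 and do not say whether each came from a separate mouse, so p-values measure the spread between these samples. Of the 24 pairs of libraries within groups, 0 held identical counts and 0 agreed within sampling noise. The fit was also run on simulated counts with changes put into the BXD-67 CMD group only. These counts held no outlying library and no effect of sex, so the run cannot show how the fit handles either. Counting limits use 3 reads and cover counting error only.

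The members, the gene lists and the tests were chosen with earlier results of these data known. Named genes were the members, the rest of both families, Lama2, from each pathway list and strain up to 3 genes past the threshold with the largest change, those past it the same way in 3 or more strains or in an F test, and for each member the 3 most similar genes, leaving out members, Gm, Rik, H2 and immunoglobulin genes. Some genes named by this rule are not printed. Alternatives were RLE size factors, no filter, DESeq2 1.42.0, sex as labelled or from Y-linked reads as a term, unique reads, only the libraries compared, libraries 16 and 23 left out together, and each library left out in turn, 32 in all.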

Additional observations from a re-analysis of the deposited data

Results flagged for a closer look

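The CMD effect differed among the 4 strains for 4 Wnt pathway genes, by an F test of the interaction in edgeR. They were Fzd9 (adjusted p = 0.0069), Axin2 (adjusted p = 0.0225), Fzd1 (adjusted p = 0.0226) and Wnt2 (adjusted p = 0.0323), out of 72 tested, or 5.56%, beside 4.67% of all genes. Fzd9 moved in opposite directions in D2 and in the other strains, Axin2 and Fzd1 rose in BXD-67 and D2, and Wnt2 fell in BXD-87. Only the Fzd9 call held under all 31 alternatives. The call was lost under 4 of them for Axin2, 5 for Fzd1 and 12 for Wnt2, a scarce gene.

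Sfrp4 was higher in every CMD library than in every WT library of BXD-67 and lower in every CMD library than in every WT library of BXD-87. The nearest libraries were close, at 4.47 CPM in CMD and 4.08 CPM in WT of BXD-67. In BXD-87 they were at 2.36 CPM in CMD and 2.52 CPM in WT. The share of all genes that separate in this way is not given, so the separation is a description only. The log2 fold changes differed by 3.89 (BXD-67 minus BXD-87), and this difference between the pair of strains was not tested. Sfrp4 was chosen with these values known, so whether it passes the F test over all 4 strains is not read as a result. In this pair of strains the mean fibroblast marker sum ran the same way. It was 2225 to 2647 CPM in CMD and 1345 to 2136 CPM in WT libraries of BXD-67. In BXD-87 it was 596 to 1607 CPM in CMD and 1535 to 2123 CPM in WT libraries, which overlapped. In D2 the sum was higher in CMD, at 2233 to 2628 CPM against 1115 to 1687 CPM, while Sfrp4 was -0.75 ± 0.72. In B6 the sums overlapped, at 2140 to 2310 CPM in CMD and 1333 to 2840 CPM in WT, and Sfrp4 was 1.34 ± 0.73. The part of the marker sum in the Sfrp4 difference was not tested.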

How the results depend on the processing

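No paired analysis was possible because the labels number the libraries 1 to 24 and no group shares a number with another. Under the 32 alternatives, 890 values of the members moved by less than the spread between replicates and 6 by more, and Dkk3 stayed lower in CMD in every strain. The 890 is no measure of stability, because most alternatives left out 1 library, often of another strain, which can hardly move a value. The spread was that of the wider group, so a value could change sign without being counted. Sfrp2 in BXD-67 was 0.90 without library 7, in place of -0.86, and was not among the 6. With sex as labelled as a term, the D2 log2 fold change was 1.28 for Dkk2, 1.14 for Sfrp1 and 2.45 for Sfrp2, whereas with sex from Y-linked reads it was -0.34, 0.23 and 0.43. The BXD-67 value of Dkk2 was -1.27 with sex as labelled and -1.39 with sex from Y-linked reads, in place of -1.95. For Sfrp2 in BXD-67 the sex terms gave 0.35 and 0.1, in place of -0.86. Over libraries left out in turn, Dkk2 in B6 ran from -1.01 to 1.24, Sfrp2 in BXD-87 from -4.34 to -0.91 and Wif1 in B6 from -2.93 to 1.33. Genes called ran from 1139 to 3798 in B6, 1921 to 4245 in BXD-67, 1832 to 3741 in BXD-87 and 1511 to 4268 in D2, from 356 to 1168 for differences among strains in the CMD effect and from 562 to 1963 for WT levels. Wnt pathway genes called ran from 6 to 15 in B6, 12 to 22 in BXD-67, 7 to 14 in BXD-87 and 7 to 24 in D2. With only the libraries compared, BXD-87 had 355 genes called and 0 Wnt pathway genes. Genes called for differences among strains numbered 1732 in DESeq2 and 1555 with sex as labelled, and for WT levels 2184 in DESeq2 and 2014 without libraries 16 and 23. For scarce members such as Wif1 depth limits precision, with 15 reads in the BXD-87 CMD group. The causes of these changes were not tested.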
